A study of Mus musculus with 16 samples.

Results

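The genes described here are 29 genes of cholesterol and fatty acid synthesis and its control by SREBP, the sterol regulatory element binding proteins, among 55401 genes in the count table. They were taken by symbol, and all 29 were found and tested. By role they comprise 7 genes of the mevalonate arm, 11 genes of the squalene and sterol arm, 5 SREBP regulators, the sterol carrier Stard4 and 5 genes of fatty acid synthesis. The peaks described are those that the authors assigned to these genes by their Ensembl identifiers.

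The study used MC38 cells, a mouse colon tumour line, grown as a culture in medium with serum. The groups are cells labelled WT, whose titles carry the tag gNC, and cells labelled Ythdf2-KO, whose titles carry the tag gY2. Neither tag is explained in the labels, and they do not say whether the KO-labelled cells are a pool or a single clone. Input RNA counts were available for 3 WT and 3 Ythdf2-KO libraries, and peak lists for m6A in WT (3 libraries), m6A in Ythdf2-KO (3 libraries) and an immunoprecipitation of YTHDF2 itself, called RIP, in WT cells (2 libraries). The titles of the RIP libraries carry neither tag, so they do not show whether these are the same cells as the gNC libraries.

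SREBP precursors sit in the endoplasmic reticulum bound to SCAP, which carries them to the Golgi for cleavage when sterols are scarce. INSIG proteins hold SCAP back when sterols are plentiful. The cleaved factors bind sterol regulatory elements, often beside CCAAT boxes bound by NF-Y, and raise transcription of nearly every enzyme of cholesterol synthesis and of many enzymes of fatty acid synthesis. N6-methyladenosine (m6A) is a methyl mark on mRNA that is placed in a short consensus, of which GGACT is a common form, and is frequent near stop codons. YTHDF2 is a cytoplasmic reader of that mark, known for shortening the life of the transcripts that it binds.

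The sequences that follow are the pathway's own GGACT sites at which the m6A and RIP lists meet, or at which the WT and KO-labelled m6A lists part. The lists give peaks and not single bases, so none of these sites is itself shown to be methylated or bound. Each is a 25-base stretch of the transcript's strand from GENCODE M21 (GRCm38, the assembly of mm10), with GGACT in capitals. The first lies in the coding sequence of Sqle, in exon 1 of 11, at chr15:59315839-59315863 on the plus strand, inside a WT m6A peak, a KO-labelled m6A peak and a RIP peak. It was the only GGACT in coding sequence that met all these conditions in the 29 genes, and its window spans the start codon. It lies 159 bases from the centre of its WT m6A peak, which is 510 bases long. The others were chosen after their values were seen. They are a site in the 3′ UTR of Sqle (exon 11, chr15:59330986-59331010, plus strand), one in Sc5d (exon 6 of 6, chr9:42254892-42254916, minus strand) and a pair in Acaca (exon 56 of 56, chr11:84399916-84399940 and chr11:84399976-84400000, plus strand), again inside all 3 kinds of peak.
Sqle coding: tgagccatgtGGACTtttcttggca
Sqle 3′ UTR: cttccacagtGGACTtgaggaccaa
Sc5d 3′ UTR: gggagttgcaGGACTtcattcaaat
Acaca 3′ UTR, first: cccatgcacaGGACTgagaaggcaa
Acaca 3′ UTR, second: gactaaagcaGGACTgccctccgtc

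In 3 genes GGACT lay in a WT m6A peak of a transcript for which the KO-labelled list held no peak. These are Insig2 (3′ UTR, exon 6 of 6, chr1:121305044-121305068, minus strand), Fasn (3′ UTR, exon 43 of 43, chr11:120807145-120807169, minus strand) and Nsdhl (coding sequence, exon 8 of 8, chrX:72957564-72957588, plus strand). None of these 3 stretches lay in a RIP peak. The Insig2 stretch lay directly beside a RIP peak at chr1:121305071-121307241, and Fasn had RIP peaks elsewhere.
Insig2: agaacctattGGACTctagaaagca
Fasn: agaagtgtctGGACTgtgtcatttt
Nsdhl: gctgtggaaaGGACTgtgcagagtt

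The promoter shown is that of Hmgcs1, the only matched gene of the 23 with a promoter in the RefSeq table (GRCm38.p6) whose window held the sterol regulatory element core TCACNCCAC. It is the stretch of 250 bases before the start, chr13:119690101-119690350 on the plus strand, with the core and the CCAAT boxes (here as ATTGG, on the other strand) in capitals.
Hmgcs1 promoter: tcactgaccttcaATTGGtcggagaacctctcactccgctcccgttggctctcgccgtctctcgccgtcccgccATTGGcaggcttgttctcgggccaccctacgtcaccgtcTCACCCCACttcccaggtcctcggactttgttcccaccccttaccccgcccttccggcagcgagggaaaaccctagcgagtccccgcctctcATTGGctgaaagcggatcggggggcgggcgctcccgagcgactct

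Input libraries held 45441281 to 50959555 counts, so that 3 counts, the level a count of 0 still allows, correspond to 0.058 to 0.065 CPM (counts scaled to a common library size with TMM factors). Whole-gene reads of Ythdf2 were 55.6, 68.6 and 59.7 CPM in WT. They were 67.9, 59.8 and 61.5 CPM in the other group (log2 fold change 0.04, SE 0.10, edgeR adjusted p = 0.809). Whole-gene reads include exons outside an edited site and do not check the knockout, so those libraries are called KO-labelled. KO-labelled library 1 stood apart from the other 2. On the first principal component of all tested genes (51.4% of variance) the WT libraries lay between -39.2 and -38.6. KO-labelled library 1 lay at -10.4 there, and KO-labelled libraries 2 and 3 at 64.1 and 63.2. On the second component WT library 1 lay at 9.67 and WT libraries 2 and 3 at -27.0 and -19.1. KO-labelled library 1 lay at 50.5, and KO-labelled libraries 2 and 3 at -6.05 and -7.94. By chi-square over its degrees of freedom, WT library 1 differed from WT libraries 2 and 3 by 30.3 and 28.6. It differed from KO-labelled library 1 by 30.0, while WT libraries 2 and 3 differed by 8.85. WT library 1 thus also stood apart within its group. Of 8 epithelial markers, Epcam and Krt18 were at 0 in all 6 libraries, and the summed level was 1.09 to 1.27 CPM in WT and 0.80 to 1.08 CPM in KO-labelled libraries, so markers of the colon epithelium were nearly absent from both groups. Summed fibroblast and matrix markers (5 genes, none at 0) were 272 to 306 CPM in WT and 225 to 232 CPM in KO-labelled libraries, and single markers differed in direction. Col1a2 was 62.0, 44.1 and 45.5 CPM in WT and 25.8, 2.34 and 2.47 CPM in KO-labelled libraries 1, 2 and 3, and Lum was 3.02 to 4.40 CPM in WT and 2.20, 0.61 and 0.47 CPM. Pdgfra was 140.5 to 145 CPM in WT and 138, 184 and 183 CPM in the same libraries. Summed leukocyte markers (10 genes, Adgre1 at 0 and Ptprc at most 0.20 CPM) were 68.6 to 88.1 against 52.7 to 129.8 CPM, most of it Cd68. Endothelial markers (4 genes, none at 0 throughout) summed to 0.98 to 1.44 CPM against 1.32 to 2.68 CPM, and adipocyte or hepatocyte markers (5 genes, Alb at 0) to 0.52 to 0.91 CPM against 0.19 to 0.75 CPM. The part of these markers in the results on the pathway was not tested.

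Log2 fold changes are KO-labelled over WT, and ± after a log2 fold change is its SE. Between the groups, 1 of the 29 genes passed the test, Scd2, which was higher in the KO-labelled libraries, and no gene passed as lower. That is 3.45% of the 29 genes, beside 4.54% of all 18969 tested genes called in either direction, 2.99% as higher and 1.54% as lower. Without a threshold, 18 fold changes were above 0 and 11 below, with a median log2 fold change of 0.06 against -0.01 over all tested genes. At an unadjusted p under 0.05 there were 7 of the 29, where 29.5% of all tested genes were under it. The libraries of the groups did not overlap for 6 genes that were higher (Scd2, Scd1, Dhcr7, Stard4, Srebf2, Acat2) and 1 that was lower (Scap), or 24.1% of the genes. The same held for 33.8% of all tested genes, 17.7% as higher and 16.2% as lower. In bulk RNA, more cells with a transcript and more transcript per cell cannot be told apart.

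The result turned on KO-labelled library 1. In the fit without it, 6 of the 29 genes passed as higher (Scd2, Scd1, Dhcr7, Srebf2, Insig2, Stard4) and 6 as lower (Cyp51, Tm7sf2, Nsdhl, Ebp, Idi1, Acly). Those 12 genes are 41.4% of the 29, where the same fit called 35.4% of 19551 genes, 19.3% as higher and 16.1% as lower. The median log2 fold change of the 29 then was -0.03, and -0.02 over all genes tested. The call of Scd2 was present in the fit with all 6 libraries and in the fit without KO-labelled library 1, and was absent when any of the other 5 libraries was left out, while its log2 fold change stayed between 0.29 and 0.34. Those 5 fits called few genes of any kind, at most 53 as higher and 40 as lower over all genes tested.

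**Figure D1:**
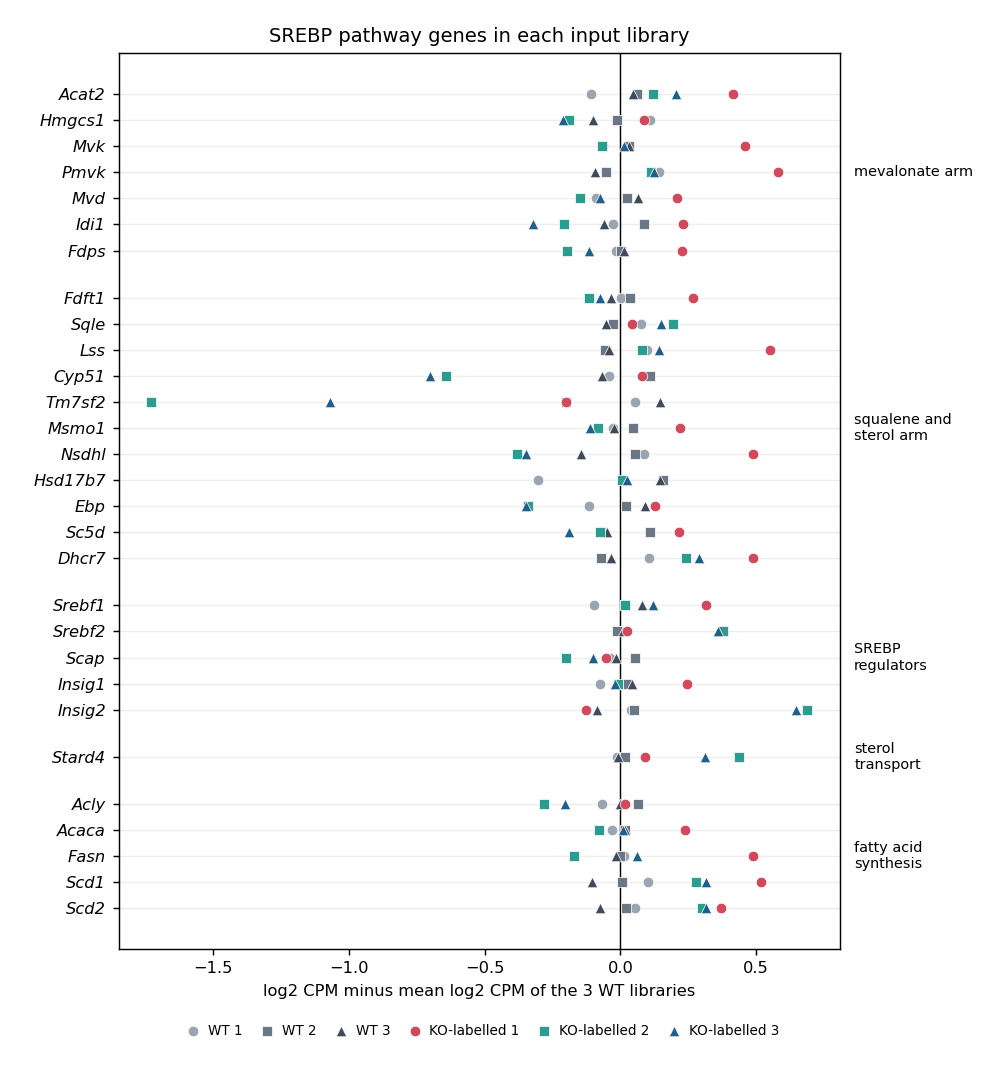
Each row is a gene, ordered by role, and the horizontal axis gives its log2 CPM in each of the 6 input libraries minus the mean log2 CPM of the 3 WT libraries. Grey marks are WT libraries and coloured marks KO-labelled libraries. KO-labelled library 1 (red) was the highest of the 6 for 19 genes, while KO-labelled libraries 2 and 3 were both below all others for 12 genes.

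KO-labelled library 1 held the highest level of the 6 libraries for 19 of the 29 genes (65.5%), where it was highest for 14.4% of all tested genes. KO-labelled libraries 2 and 3 were both below the other 4 for 12 of the 29 (41.4%, against 25.0% of all tested genes) and both above them for 4 (Sqle, Srebf2, Insig2, Stard4), where 26.8% of all tested genes did so. These libraries share a group label, and the pattern was described after the values were seen, so no test is attached to it. Relative to the WT mean, the median of the 29 genes was 0.23 on the log2 scale in KO-labelled library 1, -0.07 in library 2 and 0.01 in library 3, while the median over all tested genes lay between -0.01 and 0.01 in each library. Among the 18 enzymes of cholesterol synthesis, library 1 was the highest for 13 (72.2%) and libraries 2 and 3 were both the lowest for 10.

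The mevalonate arm builds farnesyl diphosphate from acetyl-CoA. None of its 7 genes passed the test, and the median log2 fold change was 0.00. In KO-labelled library 1 the arm's median stood 0.23 above the WT mean on the log2 scale, and in libraries 2 and 3 it stood at -0.15 and -0.08. Acat2, the cytosolic thiolase that joins acetyl-CoA units, measured 51.6, 58.1 and 57.4 CPM in WT and 74.2, 60.4 and 64.2 CPM in KO-labelled libraries, a log2 fold change of 0.25 ± 0.10 (edgeR adjusted p = 0.146). All 3 KO-labelled values lay above the WT values, library 1 by the most, and without it the log2 fold change was 0.16. Of the 50-base words of Acat2 transcripts, 39.1% also occur in Acat3, so its counts are uncertain.

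Hmgcs1, which makes HMG-CoA, measured 273, 251 and 236 CPM in WT and 268, 221 and 218 CPM in KO-labelled libraries, a log2 fold change of -0.10 ± 0.10 (edgeR adjusted p = 0.552). KO-labelled library 1 lay inside the WT range and libraries 2 and 3 below it, and the log2 fold change was -0.20 without library 1. Pmvk, the phosphomevalonate kinase, measured 94.8, 82.8 and 80.4 CPM in WT and 128, 92.7 and 93.4 CPM in KO-labelled libraries, a log2 fold change of 0.29 ± 0.14 (edgeR adjusted p = 0.221). Only library 1 lay above the WT range, and without it the log2 fold change was 0.12. Mvk, the mevalonate kinase, again had only library 1 above the WT range, with 51.2 to 54.7 CPM in WT and 73.6, 51.1 and 54.1 CPM in KO-labelled libraries.

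Mvd, the decarboxylase of the arm, measured 56.0 to 62.5 CPM in WT and 69.0, 53.8 and 56.6 CPM in KO-labelled libraries. Idi1, the isopentenyl diphosphate isomerase, measured 50.8 to 56.2 CPM in WT and 62.2, 45.8 and 42.4 CPM in KO-labelled libraries. Fdps, the farnesyl diphosphate synthase, measured 384 to 392 CPM in WT and 455, 339 and 358 CPM in KO-labelled libraries. In Idi1 and Fdps the groups overlapped because library 1 lay above every WT value and libraries 2 and 3 below every one. Idi1 passed as lower once library 1 was left out (log2 fold change -0.26, edgeR adjusted p = 0.0293). Fdps and Idi1 share 26.2% and 17.7% of their 50-base words with other genes, mostly Gm43738 and Gm13502.

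The squalene and sterol arm turns farnesyl diphosphate into cholesterol. None of its 11 genes passed the test with all 6 libraries. Without KO-labelled library 1, Dhcr7 passed as higher, Cyp51, Nsdhl, Tm7sf2 and Ebp passed as lower, and 6 passed in neither direction. Dhcr7, the reductase of the final step to cholesterol, measured 51.8, 45.8 and 47.0 CPM in WT and 67.5, 57.0 and 58.8 CPM in KO-labelled libraries, a log2 fold change of 0.34 ± 0.09 (edgeR adjusted p = 0.0731). Every KO-labelled value lay above every WT value, and without library 1 the log2 fold change was 0.27 (edgeR adjusted p = 0.0268).

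Cyp51, the lanosterol demethylase, measured 196, 217 and 192 CPM in WT and 213, 129 and 124 CPM in KO-labelled libraries, a log2 fold change of -0.38 ± 0.20 (edgeR adjusted p = 0.257). Library 1 sat within the WT range and the other 2 far below it. Without library 1 the log2 fold change was -0.67 (SE 0.08, edgeR adjusted p = 0.000787). Nsdhl, a dehydrogenase that removes sterol methyl groups, measured 52.5, 51.4 and 44.7 CPM in WT and 69.4, 38.0 and 38.8 CPM in KO-labelled libraries. Here library 1 was the highest of all and libraries 2 and 3 the lowest, so that the log2 fold change went from -0.02 (SE 0.23, edgeR adjusted p = 0.959) to -0.37 (edgeR adjusted p = 0.0145) without library 1.

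Tm7sf2, a sterol reductase, was the least abundant of the 29 genes, at 4.36, 3.65 and 4.66 CPM in WT and 3.65, 1.24 and 1.98 CPM in KO-labelled libraries, a log2 fold change of -0.88 ± 0.37 (edgeR adjusted p = 0.164). Library 1 equalled the lowest WT library to 3 digits, and libraries 2 and 3 lay below all WT values (log2 fold change -1.39 without library 1, edgeR adjusted p = 0.00394). Tm7sf2 shares exons on the same strand with Vps51, which holds 9.87% of its 50-base words, so its reads cannot be told apart fully. Ebp, the sterol isomerase, measured 52.1, 57.3 and 60.2 CPM in WT and 61.7, 44.5 and 44.3 CPM in KO-labelled libraries, and passed as lower without library 1 (log2 fold change -0.35, edgeR adjusted p = 0.0119).

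Sqle, the squalene epoxidase and a rate-setting step of the arm, measured 141, 132 and 129 CPM in WT and 138, 153 and 148 CPM in KO-labelled libraries, a log2 fold change of 0.13 ± 0.07 (edgeR adjusted p = 0.284). Its KO-labelled library 1 was the lowest of the 3 and libraries 2 and 3 were the highest of all 6, an order found for no other enzyme of cholesterol synthesis. Lss, the lanosterol synthase, measured 85.7, 76.8 and 77.7 CPM in WT and 117, 84.5 and 88.4 CPM in KO-labelled libraries, a log2 fold change of 0.27 ± 0.13 (edgeR adjusted p = 0.211). Library 1 again stood highest, library 2 lay within the WT range, and the log2 fold change was 0.11 without library 1. The 4 others did not pass in any fit with 1 library left out, with values in KO-labelled libraries 1, 2 and 3 of 171, 131 and 135 CPM for the squalene synthase Fdft1 (WT 138 to 145), of 246, 199 and 195 CPM for the sterol methyl oxidase Msmo1 (WT 207 to 218), of 103, 83.9 and 77.5 CPM for the sterol desaturase Sc5d (WT 84.6 to 95.4) and of 26.0, 25.8 and 26.1 CPM for the keto-reductase Hsd17b7 (WT 20.8 to 28.7). For the first 3 of these, library 1 was the highest and libraries 2 and 3 the lowest of the 6.

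**Figure D2:**
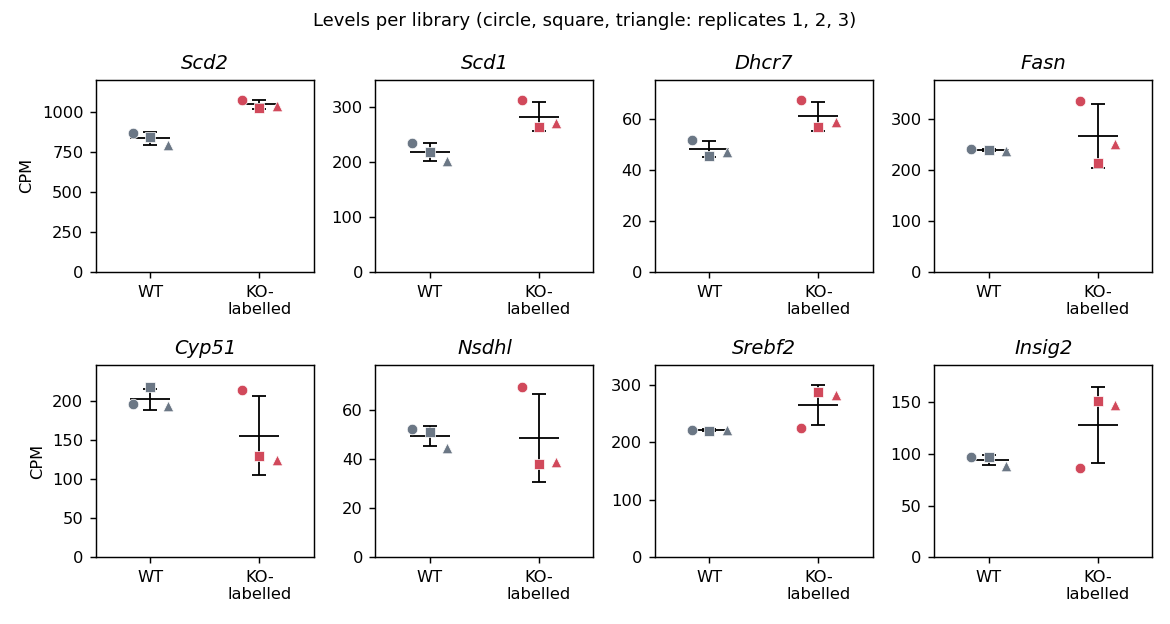
CPM of 8 genes in the 3 WT and 3 KO-labelled input libraries, with circles, squares and triangles for replicates 1, 2 and 3, a bar at the mean and whiskers of 1 SD. All KO-labelled values of Scd2, Scd1, Dhcr7 and Srebf2 lie above WT. For Cyp51, Nsdhl, Fasn, Srebf2 and Insig2 replicate 1 (circle) lies apart from the other 2 KO-labelled libraries. It is also the highest KO-labelled value for Scd2, Scd1 and Dhcr7.

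The regulators decide how much active SREBP reaches the nucleus. None of the 5 passed with all 6 libraries, and their median log2 fold change was 0.15. Srebf2, which encodes the SREBP of cholesterol genes, measured 221, 219 and 222 CPM in WT and 224, 287 and 283 CPM in KO-labelled libraries, a log2 fold change of 0.26 ± 0.10 (edgeR adjusted p = 0.143). The groups did not overlap, but library 1 lay close to the WT values. Without library 1 the log2 fold change was 0.37 (SE 0.06, edgeR adjusted p = 0.00321).

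Insig2, which retains SCAP, measured 96.3, 97.0 and 88.3 CPM in WT and 85.8, 151 and 147 CPM in KO-labelled libraries, a log2 fold change of 0.45 ± 0.20 (edgeR adjusted p = 0.188). Library 1 was the lowest of all 6 and libraries 2 and 3 the highest, and without library 1 the log2 fold change was 0.67 (SE 0.07, edgeR adjusted p = 0.000424). Its paralogue Insig1, itself a target of SREBP, had the other arrangement, at 128, 137 and 138 CPM in WT and 159, 134 and 133 CPM in KO-labelled libraries, a log2 fold change of 0.08 ± 0.09 (edgeR adjusted p = 0.607). Only library 1 of Insig1 lay outside the WT range, and without it the log2 fold change was -0.01.

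Srebf1, which encodes the SREBP of fatty acid genes, measured 152, 165 and 172 CPM in WT and 202, 165 and 177 CPM in KO-labelled libraries, a log2 fold change of 0.15 ± 0.10 (edgeR adjusted p = 0.320). Library 1 was highest and library 2 lay inside the WT range, and the log2 fold change was 0.07 without library 1. Scap, the escort of the precursors, measured 46.3, 49.4 and 47.1 CPM in WT and 45.9, 41.4 and 44.4 CPM in KO-labelled libraries, a log2 fold change of -0.12 ± 0.08 (edgeR adjusted p = 0.354). It was the only one of the 29 genes whose KO-labelled values all lay below WT. Stard4, a carrier that moves cholesterol between membranes, measured 81.2, 82.8 and 81.4 CPM in WT and 87.2, 111 and 102 CPM in KO-labelled libraries, a log2 fold change of 0.29 ± 0.09 (edgeR adjusted p = 0.103). Its KO-labelled values were all above WT, library 1 by the least, and it passed without library 1 (log2 fold change 0.38, edgeR adjusted p = 0.00314).

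Fatty acid synthesis held the gene that passed. Scd2, a desaturase that makes monounsaturated fatty acids, measured 864, 844 and 791 CPM in WT and 1075, 1025 and 1035 CPM in KO-labelled libraries. All 3 KO-labelled values lay above all WT values, and library 1 was the highest here too. Scd2 rose by 0.33 on the log2 scale (SE 0.06, edgeR adjusted p = 0.0405), and by 0.31 without library 1 (edgeR adjusted p = 0.0115).

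Scd1, its neighbour on chromosome 19 and a desaturase of the same reaction, measured 234, 219 and 202 CPM in WT and 312, 264 and 271 CPM in KO-labelled libraries, a log2 fold change of 0.37 ± 0.09 (edgeR adjusted p = 0.0605). The groups did not overlap, and Scd1 passed without library 1 (log2 fold change 0.30, edgeR adjusted p = 0.0226). Scd1 and Scd2 share 4.56% and 3.97% of their 50-base words with other genes, chiefly Scd3 and Scd1, respectively. Fasn, the fatty acid synthase, measured 243, 240.5 and 238 CPM in WT and 337, 214 and 251 CPM in KO-labelled libraries, a log2 fold change of 0.15 ± 0.16 (edgeR adjusted p = 0.550). Its WT values were nearly equal while the KO-labelled values lay on both sides of them, and without library 1 the log2 fold change was -0.05.

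Acaca, the acetyl-CoA carboxylase, measured 83.8 to 86.6 CPM in WT and 101, 81.1 and 86.2 CPM in KO-labelled libraries. Of its 50-base words, 30.4% occur in other genes, mostly Gm5182. Acly, the ATP citrate lyase that supplies cytosolic acetyl-CoA, measured 186 to 204 CPM in WT and 198, 160.5 and 169.6 CPM in KO-labelled libraries. Acly passed as lower without library 1 (log2 fold change -0.24, edgeR adjusted p = 0.0321).

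Exons of Hmgcs1, Idi1, Fdft1, Lss, Cyp51, Srebf1 and Scap overlap a gene on the opposite strand (Ctsb for Fdft1, Akap9 for Cyp51, Rai1 for Srebf1). The sources used here do not give the strand setting of the counting, so that reads from such partners cannot be told apart.

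Of 40 further genes of the pathway and its control, 38 were tested and 2 passed, both as higher (5.26%, against the 4.54% of all tested genes). Lpin1, a phosphatidate phosphatase that also restrains SREBP, measured 60.6, 53.8 and 54.2 CPM in WT and 71.7, 85.8 and 94.2 CPM in KO-labelled libraries. Lpin1 rose by 0.58 on the log2 scale (SE 0.11, edgeR adjusted p = 0.0398). The groups did not overlap, and library 1 was the lowest of the KO-labelled values. The median log2 fold change of the 38 genes was 0.08. The call of Lpin1 was lost when any library other than KO-labelled library 1 was left out, in fits that called at most 53 genes as higher and 40 as lower. Without KO-labelled library 1, 9 of the 38 passed as higher and 7 as lower (42.1%, against 35.4% of all genes in that fit).

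Levels of different genes were compared per length of exon. With the union of annotated exons as the length, Scd2 was the highest in WT at 152 ± 7.0 CPM per kilobase of exon (SD, n = 3), followed by Fdps at 92.3 ± 1.0, Hmgcs1 at 55.1 ± 4.1, Pmvk at 50.2 ± 4.5, Cyp51 at 45.7 ± 3.1, Scd1 at 44.6 ± 3.2 and Insig1 at 43.4 ± 1.9. Scd2 and Fdps each stood above the next gene by more than the sum of the SDs, while from Hmgcs1 to Insig1 neighbours in the order differed by no more than that sum. At the other end were Hsd17b7 at 5.09 ± 0.88, Acaca at 5.02 ± 0.10 and Tm7sf2 at 0.96 ± 0.12 CPM per kilobase. The SREBP genes were neighbours in the middle of the order, at 30.7 ± 0.24 CPM per kilobase for Srebf2 and 28.9 ± 1.8 for Srebf1, a difference smaller than the sum of their SDs. The order depended on the length used. With the length of the transcript that has the longest coding sequence, an alternative chosen after seeing the data, Fdps came first at 281 ± 3.1 CPM per kilobase, before Scd2 at 153 ± 7.0 and Msmo1 at 103 ± 3.0, while Acaca at 9.01 ± 0.17 and Tm7sf2 at 2.87 ± 0.35 remained last. Part of the Fdps words occur in other genes, as given above.

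**Figure D3:**
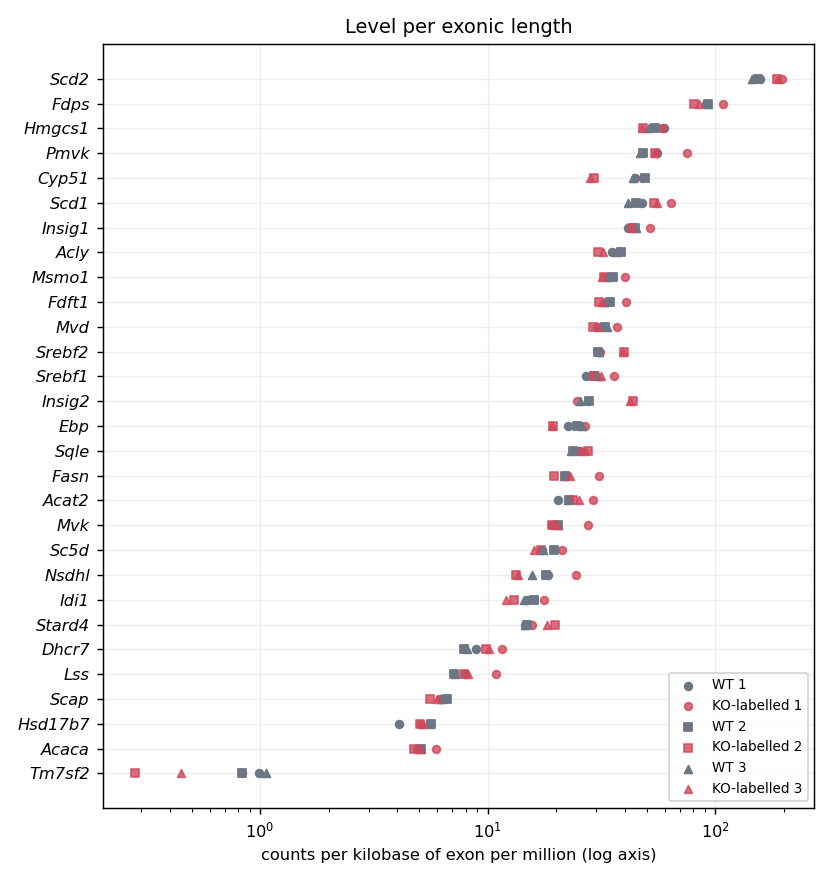
CPM of each gene per kilobase of annotated exon, on a log axis, in the 3 WT (grey) and 3 KO-labelled (red) input libraries, ordered by the WT mean. With this length Scd2 leads at 152 in WT (Fdps leads with the length of the coding transcript), Tm7sf2 is the lowest at 0.96, and libraries of the same gene lie close together relative to the range between genes.

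The deposited m6A and RIP lists hold 1 set of peaks per group, so shares of genes with a peak have no replicate error and carry no test. In WT, 23 of the 29 genes had an m6A peak (79.3%), close to the 77.3% of tested genes at 20 CPM or more in WT, a level that 28 of the 29 reached. In the KO-labelled list 17 had a peak (58.6%, against 74.6%). The RIP list held 12 of the 29 (41.4%, against 52.5%), and 11 had both a WT m6A peak and a RIP peak (37.9%, against 47.8%). Over all 18969 tested genes, without the CPM limit, the shares were 48.7% for WT m6A and 45.0% for KO-labelled m6A. They were 34.3% for RIP and 29.2% for both a WT m6A and a RIP peak. The 29 genes lay above each of these, so the direction depended on the genes compared. Limiting the lists to peaks with a deposited value of at most 1e-05 gave the same counts of the 29.

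Peaks were counted by role. All 11 genes of the squalene and sterol arm had an assigned WT m6A peak and 5 had a RIP peak (Fdft1, Sqle, Msmo1, Sc5d, Hsd17b7). The peaks of Hsd17b7 and Tm7sf2 had under 50% of their bases on the coding transcript chosen for the gene. In the mevalonate arm 4 of 7 had a WT m6A peak (Hmgcs1, Mvk, Pmvk, Fdps) and 0 had a RIP peak. Of the 5 regulators, 3 had a WT m6A peak (Srebf2, Insig1, Insig2) and 4 a RIP peak (the same 3 and Scap). Stard4 had both kinds. In fatty acid synthesis all but Acly had a WT m6A peak, and Acaca and Fasn had RIP peaks. Mvd, Idi1, Srebf1, Acat2 and Acly had neither kind. Differences between roles were not tested.

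**Figure D4:**
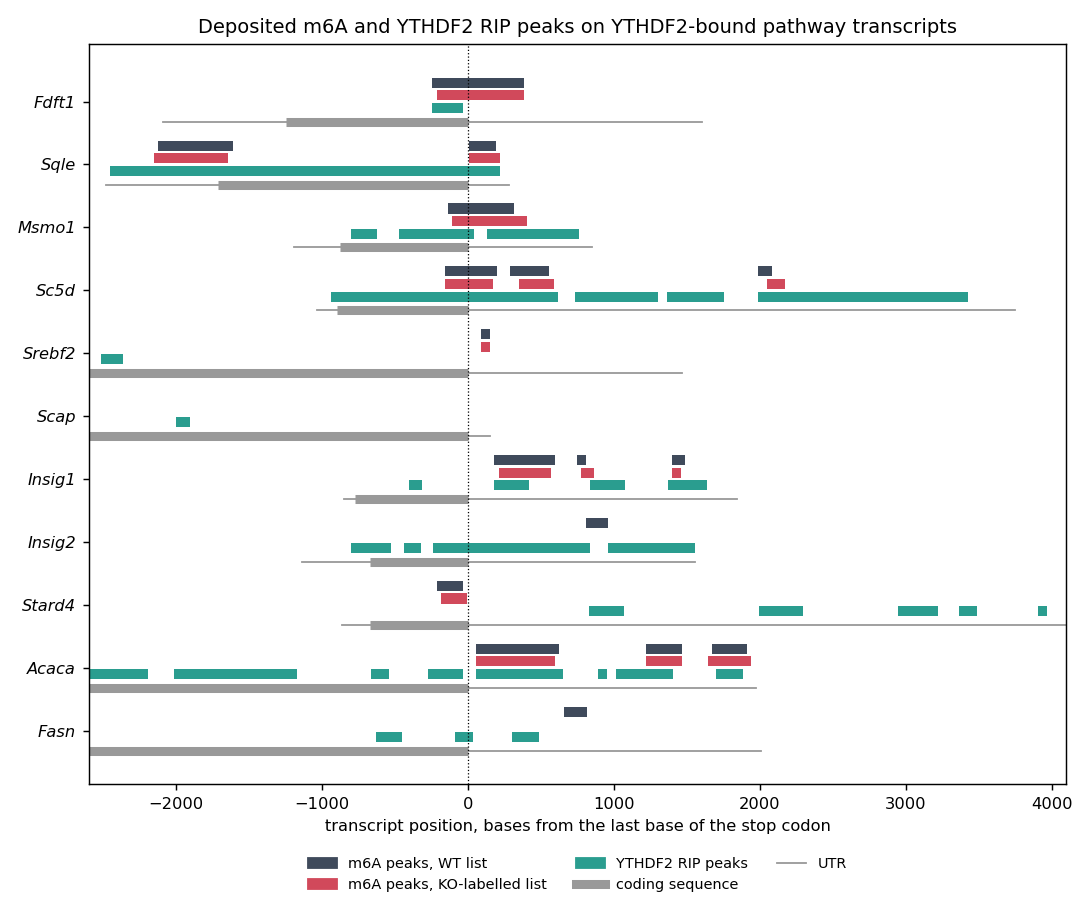
Positions of WT m6A peaks (dark), KO-labelled m6A peaks (red) and YTHDF2 RIP peaks (green) on 11 of the 12 transcripts with a RIP peak, in transcript bases from the last base of the stop codon, with the coding sequence as a thick grey bar and UTRs as a thin line. The view ends at both sides before the longest transcripts do, and peaks outside the drawn transcript are left out, which is all of those of Hsd17b7. Sqle is covered by RIP peaks over nearly its whole length, Acaca by many separate ones, and the WT m6A peaks gather after the stop codon.

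The 29 genes held 32 WT m6A peaks, and 28 of the centres fell on the coding transcript chosen for its gene. Of these 28, 21 lay in the 3′ UTR (75.0%, against 35.0% of all placed WT m6A peaks), 6 in coding sequence and 1, that of Sqle, in the 5′ UTR. Within 200 bases of the stop codon lay 12 (42.9%, against 25.7%). GGACT occurred in 14 of the 28 (50.0%, against 36.0% over all placed peaks), and in 21.1% of windows of the same length off the peaks of the same transcripts. The peak with the lowest deposited value was in the 3′ UTR of Insig1, 388 bases past the stop codon, and held no GGACT. Those of Msmo1 (1e-242), Ebp and Sqle (1e-189) followed, and each held it.

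In 6 of the 23 genes with a WT m6A peak the KO-labelled list held none (26.1%), where that was so for 11.9% of all genes with a WT m6A peak and for 5.82% of those at 20 CPM or more. They were Fdps (61 bases of exon, deposited value 2e-33), Scd2 (61 bases, 7.9e-26), Insig2 (150 bases, 1.3e-16), Nsdhl (238 bases, 1.6e-13), Fasn (151 bases, 3.5e-10) and Tm7sf2 (120 bases, 2.2e-08). Of these, Tm7sf2, at a mean of 4.22 CPM in WT, falls outside the genes at 20 CPM or more. Its peak was not placed on the coding transcript chosen for Tm7sf2, which shares exons with Vps51. No gene of the 29 had a KO-labelled m6A peak without a WT peak. Whether signal at these 6 sites differed was not tested, since the lists hold no value per library. The KO-labelled list was the shorter (17428 peaks, against 19236 in WT). Among single peaks rather than genes, 26 of the 32 WT m6A peaks overlapped a KO-labelled peak by at least 1 exonic base (81.2%, against 80.3% of all WT peaks).

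The 12 genes in the RIP list held 45 RIP peaks. Of these, 14 overlapped a WT m6A peak (31.1%, against 34.2% of all RIP peaks), and 4 (8.89%, against 18.3%) had at least 50% of their exonic bases under one. Of 43 RIP peaks placed on a transcript, 24 lay in coding sequence and 19 in the 3′ UTR (44.2%). Acaca had 13 RIP peaks, in sum 4597 exonic bases, of which 3 overlapped its 3 WT m6A peaks in the 3′ UTR, where the Acaca stretches printed above lie. The 3 RIP peaks of Sqle covered 2819 exonic bases and both of its m6A peaks. The 4 of Sc5d covered 3945 bases, mostly in the 3′ UTR. Stard4 had 5 RIP peaks, all in its 3′ UTR, and its single m6A peak in coding sequence met none of them. The WT m6A peak of Insig2 lay between 2 RIP peaks and shared only its edges with them (1 and 31 bases).

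Fold changes in the inputs were set beside these classes as a description. The 11 genes with both a WT m6A peak and a RIP peak had a median log2 fold change of 0.08 (range -0.01 to 0.45, 9 above 0). The 12 with a WT m6A peak alone had a median of 0.07 (range -0.88 to 0.37, 6 above 0), and the 5 with neither had 0.00. Scap, with a RIP peak alone, had -0.12. Without KO-labelled library 1 the medians of the first 3 classes were -0.01 (range -0.13 to 0.67), -0.09 (range -1.39 to 0.31) and -0.11 (range -0.26 to 0.16). These classes also differed in level, with median WT levels of 134, 83.0 and 59.8 CPM. Fold changes of all tested genes in the same classes were not computed, so the medians have no background beside them. Scd2, which passed, had a WT m6A peak and no RIP peak.

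Promoter windows of 250 bases before to 50 after a start were present in RefSeq for 23 of the 29 genes, 31 windows in all. A gene was counted if any of its windows matched. Fdps, Fdft1, Sqle, Stard4, Scd1 and Scd2 had no window and were not searched. The sterol regulatory element core TCACNCCAC, searched on both strands, was in the window of 1 of the 23 (4.35%), Hmgcs1, against 1.44% of 27025 genes and 1.31% of those tested at 20 CPM or more. In the Hmgcs1 stretch printed above it begins at position -137 from the start site, with CCAAT boxes at -237, -176 and -45. CCAAT, which does not overlap the core, was found on either strand in 20 of the 23 (87.0%), against 41.1% of all genes and 43.8% of those at 20 CPM or more. Counted per window, it was in 67.7% of the 31 windows, against 37.4% of all 32851. Such a match describes letters in a window and no binding was measured at promoters.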

How the data were processed

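Gene counts covered 3 WT and 3 Ythdf2-KO input libraries, and 1 peak list each came from the m6A libraries of both groups and from the YTHDF2 RIP. The authors deposited whole-number read counts per gene without normalization, and 0 columns of other samples were present. Each deposited peak carries a score, read here as a p-value from its values alone. Per the submitters' processing notes, the tools are HISAT2, HOMER and ChIPseeker and the genome build is mm10, with no role stated for each tool. The sources used here do not give the counter, strand setting, annotation release, peak caller or the way replicates were combined into a list.

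Counts were tested with the quasi-likelihood test of edgeR 4.0.16 (TMM, filterByExpr, no covariate, Benjamini-Hochberg adjustment over 18969 genes at 0.05) in R 4.3.3, which was tested on simulated data. Fold changes are KO-labelled over WT, and SE is the log2 fold change divided by the square root of F. CPM uses TMM-scaled totals, and per-library log2 values a prior count of 2. DESeq2 1.42.0, other scalings, no count filter, a replicate block and each library left out were tried. The labels do not name separate cultures, and p-values may reflect technical spread alone. No 2 libraries agreed within sampling noise (chi-square per degree of freedom at least 8.85).

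Peaks were compared over exonic blocks on the same strand and placed on GENCODE M21 transcripts, to which 55141 of the 55401 genes matched without version numbers. Levels per length use the union of annotated exons or, as an alternative chosen after seeing the data, the transcript with the longest coding sequence. All 29 genes are named. Values in every library and the test are given for those that passed, the 12 with the lowest adjusted p, and Srebf1, Insig1, Scap, Fasn and Hmgcs1, and of the partner genes that passed Lpin1 is named, while the other is not reported here. The genes and lists were chosen with earlier results of these data known. No sequence is shown for Stard4.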

Additional observations from a re-analysis of the deposited data

How the results depend on the processing

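Scd2 was the only one of the 29 genes past the threshold with edgeR and all 6 libraries. DESeq2 gave 3 of the 29 as higher (Scd2, Scd1, Dhcr7), in a fit that called 2134 of 16675 genes as higher. No count filter gave 0 and the replicate block gave 0. Leaving out 1 library at a time gave 0 to 6 as higher and 0 to 6 as lower, all from the fit without KO-labelled library 1. Of the 38 partner genes tested, DESeq2 gave 6 as higher, no count filter 0 and the replicate block 0. Single libraries left out gave 0 to 9 as higher and 0 to 7 as lower. Over all genes the counts of higher and lower calls were 568 and 293 of 18969 tested, and 507 and 279 with RLE size factors. DESeq2 gave 2134 and 1134 of 16675, no count filter 70 and 41 of 35049, and the replicate block 45 and 26 of 18969. With 1 library left out the counts ran from 0 to 3782 as higher and 0 to 3144 as lower. Same-numbered libraries deviated together only weakly (r of 0.05, 0.11 and 0.05, each library's highest), so the numbers are not taken as pairs. No scaling moved the median of all genes by 0.1 on the log2 scale.

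Signs turned for genes near 0. They also turned for Mvk (0.154 in the main fit) and Fasn (0.152), in the fit without KO-labelled library 1 alone. Hsd17b7 had a log2 fold change of 0.00159 with DESeq2, 0.00614 with no count filter and 0.0142 with the block, and Mvd had -0.0037 with RLE and -0.00554 with the block. With 1 library left out, the values ran from -0.025 to 0.256 for Mvk, -0.112 to 0.0739 for Mvd, -0.264 to 0.0281 for Idi1, -0.155 to 0.0674 for Fdps, -0.0939 to 0.107 for Fdft1, -0.132 to 0.0785 for Sc5d, -0.0958 to 0.0773 for Msmo1, -0.366 to 0.13 for Nsdhl, -0.151 to 0.0817 for Hsd17b7, -0.0125 to 0.124 for Insig1, -0.0487 to 0.292 for Fasn and -0.0332 to 0.13 for Acaca. Requiring 50% of exonic bases left 4 of the 14 RIP peaks that overlapped an m6A peak. The causes were not tested. Peaks have no replicate error, and small changes in Tm7sf2 are limited by its low counts.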
